A study of Homo sapiens with 3 samples.

Results

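The wide BEND3 peaks are the 290 peaks of 570 bp or more among the 1118 peaks of the longer of 2 lists, that of ChIP replicate 2. They were chosen by their measured width, so width and score in replicate 2 describe them and are not tested. They made up 25.9% of the list and 49.7% of its covered length (260 of 522 kb). The other 828 peaks of the same list, here called narrower, are the reference for position and neighbours, and the shorter list of ChIP replicate 1 (216 peaks) supplies values that the choice did not use. Both lists together hold 1334 peaks.

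The study used NTera2, an established human embryonal carcinoma line kept in serum-containing medium, with no treatment named. Chromatin was pulled down with an in-house rabbit antibody against BEND3 (S3242-2) in 2 libraries and with rabbit IgG in 1 library, which the names of both lists give as their control. Through this shared control, the overlap with replicate 1 and the replicate 1 widths are not independent of the replicate 2 list. Whether the 2 pull-downs started from different cultures is not stated, peaks are not replicates, and the p-values therefore describe these lists of 1 line. The depth behind each list is unknown. All peak positions are hg19, counted from 1. A score is the authors' own value for a peak, used only to rank peaks within a list. How it was computed is not given, so whether it depends on peak width is unknown.

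BEND3 is a nuclear protein with BEN domains, a fold that binds DNA and is found in several repressors. It is known as a transcriptional repressor in pluripotent cells that acts at gene starts rich in CpG dinucleotides and in heterochromatin. The width of a called peak is the length of the stretch in which the caller found signal above the control. It therefore depends on how far the signal extends, and also on depth and calling settings.

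Promoter sequence is shown for CTXN1 and ETV6, genes from a small sample with known hg19 starts, so that DNA under a wide peak can be read. Their peaks cover the whole stretch before the start, with room for the difference in gene length between the builds. CTXN1 encodes cortexin 1, a membrane protein of neurons, and its 646 bp peak (7990788 to 7991433 on chromosome 19, score 280) covered 413 bp upstream of the start at 7991020. ETV6 encodes a repressor of the ETS family, and its 1048 bp peak (11801942 to 11802989 on chromosome 12, score 450) covered 846 bp upstream of the start at 11802788. The sequences are the 250 bases before the gene's start in RefSeq on GRCh38.p14, 5′ to 3′ on the gene's strand, at chr19:7926136-7926385 (minus) and chr12:11649424-11649673 (plus). These positions cannot be set beside the hg19 ones. The gene's length differed between the builds by 0 bp for CTXN1 and 166 bp for ETV6. Capitals mark the motif CCCACGCG, known as a recognition sequence of BEND3, searched on both strands (CGCGTGGG on the other).
CTXN1: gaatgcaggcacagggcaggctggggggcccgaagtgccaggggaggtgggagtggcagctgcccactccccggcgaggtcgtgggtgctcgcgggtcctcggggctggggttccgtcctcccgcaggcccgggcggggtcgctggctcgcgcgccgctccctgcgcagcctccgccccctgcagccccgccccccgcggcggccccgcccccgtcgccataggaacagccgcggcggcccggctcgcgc
ETV6: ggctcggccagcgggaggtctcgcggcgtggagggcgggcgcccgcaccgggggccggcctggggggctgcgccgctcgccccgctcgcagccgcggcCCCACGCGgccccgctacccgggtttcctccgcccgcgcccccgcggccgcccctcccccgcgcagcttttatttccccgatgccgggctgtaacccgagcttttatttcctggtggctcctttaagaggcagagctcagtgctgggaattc
The ETV6 stretch held the motif 1 time, starting 152 bases before the RefSeq start, and the CTXN1 stretch 0 times. Of the 35116 promoters of the table, 516 held it (1.47%). Both stretches were rich in G and C, at 80% for CTXN1 and 74.4% for ETV6 against a median of 58% over all promoters. They held 31 and 32 CpG dinucleotides against a median of 11. A match of letters is a description, and neither ETV6 nor CTXN1 had a replicate 1 peak.

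**Figure D1:**
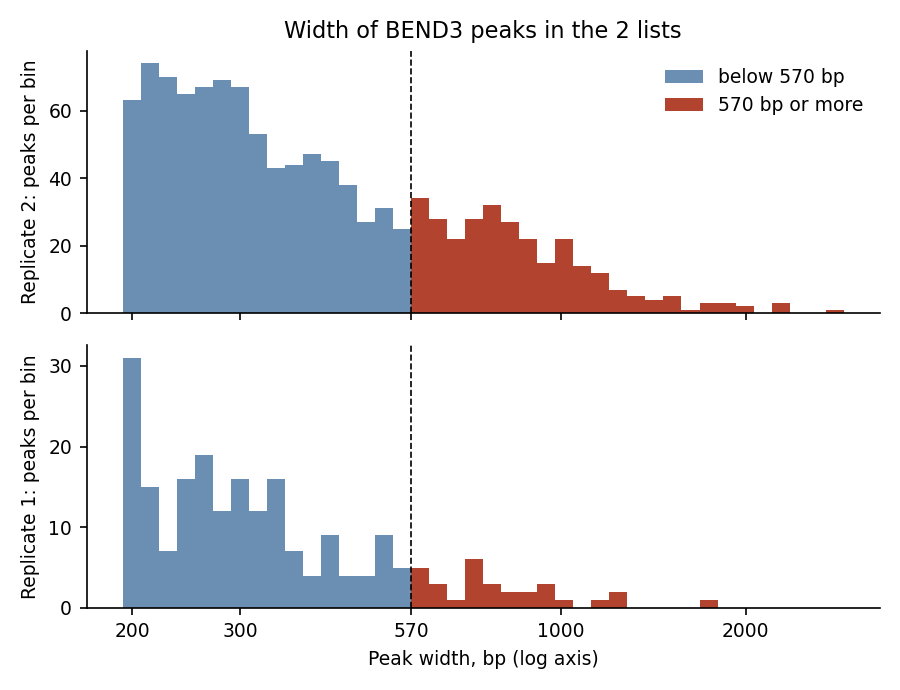
Number of peaks per bin of width (log axis) in replicate 2 (top) and replicate 1 (bottom), with bins split at 570 bp (dashed line). Wide peaks number 290 of 1118 in replicate 2 and 30 of 216 in replicate 1, and widths run on across the line without a gap.

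Width among the chosen peaks ran from 570 to 2711 bp, with a median of 803 bp (quartiles 675.5 and 1008 bp). The narrower peaks ran from 200 to 569 bp, with a median of 292 bp. No gap separates the groups. Just inside lay 3 peaks of 570 bp, in 9p24.3 (score 331), 9q31.3 (score 321) and 13q14.2 (score 277). Just outside lay a peak of 569 bp in 20q11.21 (score 764) and peaks of 568 bp in 12q22 (score 351) and 1p32.1 (score 338). Scores of the groups covered much the same range: the median was 399 for wide and 402.5 for narrower peaks, the lowest were 241 and 247, and the highest 3590 and 2620.

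The widest peak of all lay in 7p22.3, at 1040902 to 1043612 on chromosome 7, with a score of only 383 and no replicate 1 peak. Next came 21q22.3 (46973506 to 46975852, 2347 bp, score 485), 1q23.3 (161438696 to 161440904, 2209 bp, score 714) and Yp11.32 (423354 to 425559, 2206 bp, score 319). The 10 widest also included a second 1q23.3 peak of 2048 bp, 19p13.3 peaks of 1953 and 1904 bp, 13q31.3 (1905 bp), 1q44 (1844 bp) and the tip of 5p (1784 bp). Scores of 9 of these 10 lay between 314 and 714. The exception was the 5p tip, at 10013 to 11796, which had the highest score of the whole list, 3590. It lay 10012 bp from the chromosome end. High scores at such a distance were not particular to it. The narrower peaks nearest the long-arm ends of X and Y, at 10152 and 10147 bp, scored 2559 and 2530. Scores near ends were not compared as a group. Of the 10 widest peaks 5 overlapped a replicate 1 peak.

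Of the 10 wide peaks with the highest scores, only the 5p tip was also among the 10 widest. The others measured 586 to 1242 bp, on both sides of the wide peaks' median of 803 bp. After the 5p tip came 2 peaks of 1q23.3, at 161435061 to 161435646 (586 bp, score 1958) and at 161420264 to 161420872 (609 bp, score 1674). They were followed by 19p13.3 (2840979 to 2841836, 858 bp, score 1296), 1q21.3 (154973401 to 154974432, 1032 bp, score 1147) and 9q33.2 (123963415 to 123964558, 1144 bp, score 1117). The remaining 4 of the 10 were 2q37.3 (score 1109), 12q23.3 (score 1086), 21p11.2 (score 1080) and Xp22.33 (score 1033). All but the 21p11.2 peak, which lay in a variable band on the short arm, overlapped a replicate 1 peak. This is 9 of 10, against 5 of the 10 widest and 26.9% of all wide peaks. Among the wide peaks with scores of 523 to 3590 the share was 66.7%.

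Wide peaks of the longer list overlapped a replicate 1 peak more often than narrower ones. The same limit applied to the shorter list could not decide whether this holds there. A replicate 1 peak overlapped 78 of the 290 wide peaks by at least 1 bp, or 26.9% (95% exact binomial interval 21.9 to 32.4%). For the narrower peaks this was 118 of 828, or 14.3% (11.9 to 16.8%), and for the whole list 17.5%. The difference was 12.6 percentage points (95% Newcombe interval 7.23 to 18.5; two-sided Fisher's exact test p = 2.6e-06, Benjamini-Hochberg adjusted over 4 comparisons p = 1.0e-05). A longer peak offers more bases to overlap. A window of 200 bp at the midpoint of every replicate 2 peak gave both groups the same length, while replicate 1 peaks kept their own. The shares were then 19.7% and 14.3% (Fisher's exact p = 0.031), a smaller excess than with whole peaks. Counting only overlaps of 50% or more of each peak turned the order, with 10.7% of wide and 13.0% of narrower peaks (Fisher's exact p = 0.35). Of the replicate 1 peaks, 27 of 30 at or above 570 bp (90%) and 90.9% of the narrower ones overlapped a replicate 2 peak (Fisher's exact p = 0.75). Nearly all replicate 1 peaks of either width had one, which left little room for a difference.

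The step did not lie at 570 bp. Of peaks under 300 bp 7.26% overlapped replicate 1, and of those from 300 to under 570 bp 22.2% (95% exact interval 18.2 to 26.7%). Above the line the shares were 19.5% from 570 bp (12.6 to 28.0%), 28.8% from 750 bp, 35.1% from 1000 bp and 37.5% for the 16 peaks of 1500 bp or more (15.2 to 64.6%). The intervals of neighbouring classes overlap from 300 bp upward.

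Within classes of score the excess was present in the upper part of the list. The list was split by score into 4 classes of nearly equal size. Scores still varied within a class, most in the highest. Wide and narrower peaks of like score need not have like signal, since the meaning of the score is not given. Overlap was again by at least 1 bp of the whole peak, so the greater length of wide peaks still entered. The midpoint window was not applied within classes. In the class with the highest scores (523 to 3590), 48 of 72 wide peaks overlapped replicate 1 (66.7%, 95% exact interval 54.6 to 77.3%) and 80 of 208 narrower ones (38.5%, 31.8 to 45.4%). The difference there was 28.2 points (Newcombe interval 14.9 to 39.9; Fisher's exact test, Benjamini-Hochberg adjusted over 4 classes, p = 0.00023). In the next class (400 to 521) it was 21 of 71 against 24 of 208, or 29.6% and 11.5% (adjusted Fisher's exact p = 0.0014). In the lower classes, few peaks of either kind were in replicate 1. There the counts were 7 of 60 against 12 of 219 (adjusted Fisher's exact p = 0.19) and 2 of 87 against 2 of 193 (p = 0.59, exact), so that a difference was not detectable.

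**Figure D2:**
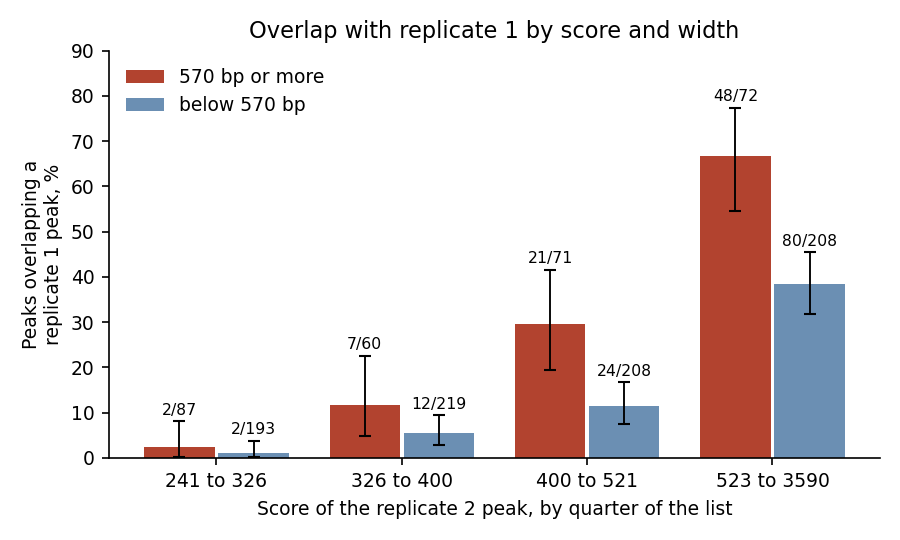
Percent of replicate 2 peaks that overlap a replicate 1 peak by at least 1 bp (y axis), by score class (x axis), for wide and narrower peaks. Bars are shares with 95% exact binomial intervals and counts above; in the highest class 48 of 72 wide and 80 of 208 narrower peaks overlap.

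At the shared regions, the replicate 1 peak was itself wider where the replicate 2 peak was wide. Its median width was 370 bp at the 78 wide peaks (quartiles 263.5 and 581.75 bp) and 276 bp at the 118 narrower peaks (quartiles 217.75 and 345.5 bp). It reached 570 bp at 22 of the 78 (28.2%) and at 5 of the 118 (4.24%). These ranges overlap, and at most wide peaks the replicate 1 peak would not have passed the width limit. It lay wholly inside the wide peak in 66 of 78 cases and covered a median of 40.4% of it, with midpoints a median of 134 bp apart. These placements depend on the replicate 2 width that chose the peaks, so they only describe the wide peaks and are not set against the narrower ones.

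The score in replicate 1 did not separate the groups. Its median was 452.5 at wide peaks (270 to 3200) and 474.5 at narrower peaks (254 to 2324). The highest replicate 1 scores at wide peaks were those of the 5p tip (3200), 1q23.3 (1168), 9q33.2 (1057), 2q37.3 (1000) and 19p13.3 (948). Width was similar at the 5p tip, with 1759 bp in replicate 1 and 1784 bp in replicate 2, and at 2q37.3, with 920 and 898 bp. It differed widely at 13q31.3, where a replicate 1 peak of 200 bp stood against 1905 bp.

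**Figure D3:**
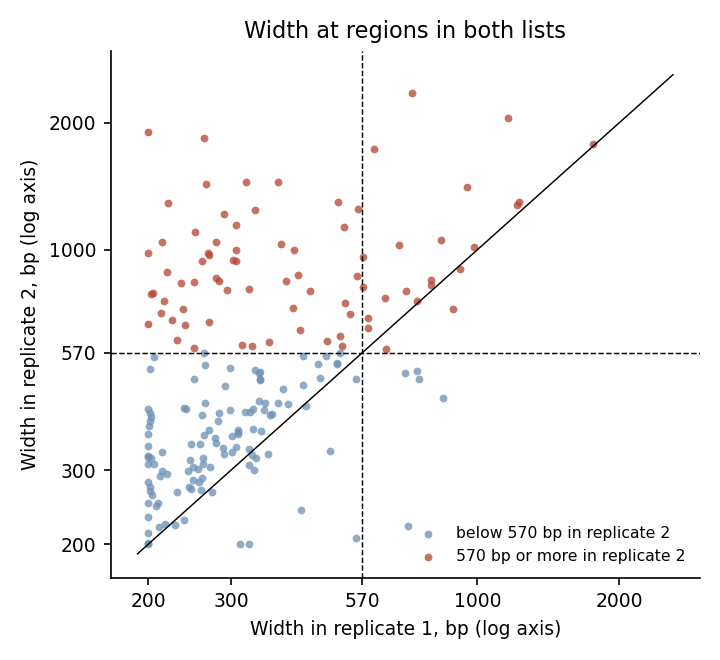
Width in replicate 1 (x axis) and in replicate 2 (y axis) of the 196 replicate 2 peaks with a replicate 1 peak, both on log axes; the solid line marks equal width and dashed lines 570 bp. Of the 78 wide peaks 22 also reach 570 bp in replicate 1, and 3 are wider there than in replicate 2.

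Wide peaks had a close neighbour more often than narrower ones, but not beyond the threshold without chromosome 1. Another peak of the list lay within 10 kb of 25 wide peaks (8.62%, 95% exact interval 5.66 to 12.5%) and of 33 narrower ones (3.99%, 2.76 to 5.55%), against 5.19% of the whole list. The difference was 4.64 points (Newcombe interval 1.51 to 8.60; Fisher's exact p = 0.0033, adjusted p = 0.0067). Distance was counted between peak edges. Having a neighbour is mutual, so grouped peaks are linked, while the test and interval count them as independent. Without chromosome 1 the shares were 5.49% and 2.97% (Fisher's exact p = 0.10). Without the bands 1q23.3 and 1q42.13 alone, they were 5.42% and 3.54% (Fisher's exact p = 0.21). Within 100 kb the shares were 22.4% and 21.5%.

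The 25 wide peaks fell into 16 groups, of which 14 were pairs. Band 1q23.3, known for its cluster of repeated transfer RNA genes, held a row of 8 peaks from 161412923 to 161440904, 7 of them wide. Along this row, shorter peaks with higher scores alternated with longer ones with lower scores. Whether the calling itself ties score to width is unknown. The shorter wide ones, of 722, 609 and 586 bp, had scores of 875, 1674 and 1958, and all 3 had a replicate 1 peak. The longer ones were 1634, 1536, 2048 and 2209 bp wide with scores of 745, 752, 594 and 714, and only that of 2048 bp had a replicate 1 peak, 1160 bp wide. The one narrower peak of the row measured 553 bp (score 889) and had none. All 8 scored in the highest class (523 to 3590), where 66.7% of wide and 38.5% of narrower peaks overlapped replicate 1. Whether these peaks sit on repeated DNA was not examined.

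Band 1q42.13 holds the array of 5S ribosomal RNA genes, the RNA of the large ribosomal subunit that RNA polymerase III makes. There 3 wide peaks stood among 6 grouped ones, at 228751032 to 228752167 (1136 bp, score 618), 228758317 to 228758901 (585 bp, score 776) and 228773976 to 228774576 (601 bp, score 712). None of the 6 overlapped a replicate 1 peak. All 6 scored in the highest class (523 to 3590), where 66.7% of wide and 38.5% of narrower peaks overlapped one. This count is small and was not tested. The genes themselves were not located in hg19 here, for this band or for 1q23.3.

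**Figure D4:**
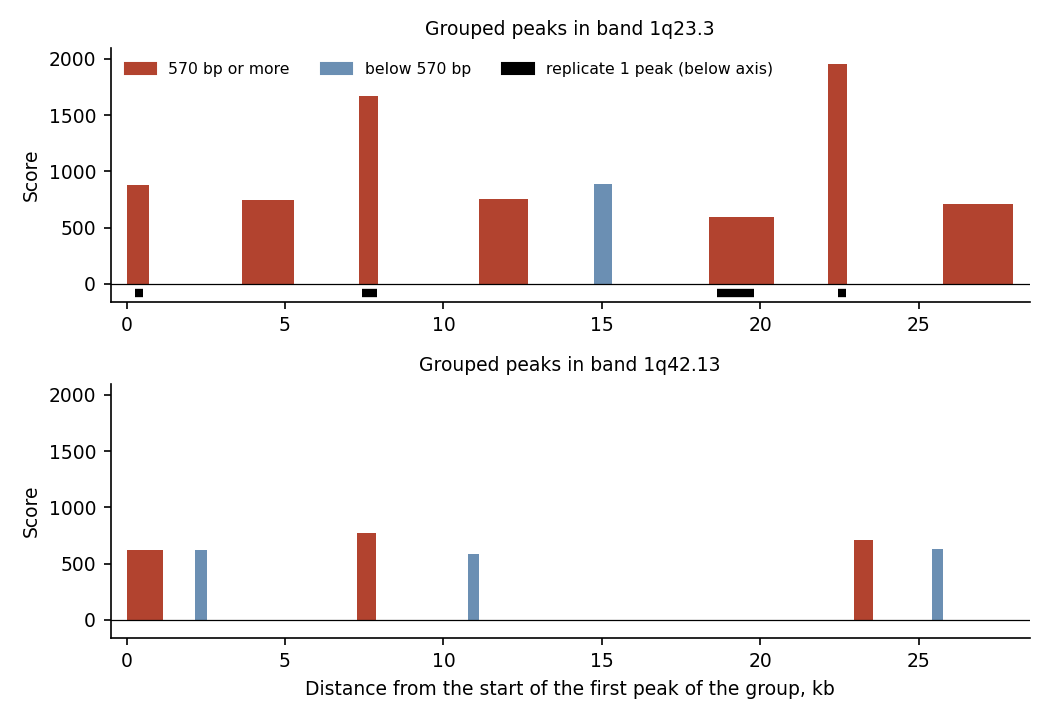
Peaks of the groups in 1q23.3 (top) and 1q42.13 (bottom) by distance from the first peak of the group (x axis, kb) and score (y axis); bar width is peak width, and black marks below the axis are replicate 1 peaks. Of the 8 peaks in 1q23.3, 7 are wide and 4 have a replicate 1 peak; of the 6 in 1q42.13, 3 are wide and 0 have one.

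Most other groups paired 1 wide with 1 narrower peak. In 6p21.2, the band of CDKN1A, which encodes the cell cycle inhibitor p21, a wide peak of 591 bp at 36647906 to 36648496 had a score of 866. Its replicate 1 peak scored 710, and a narrower neighbour of 294 bp with a score of 521 lay 1061 bp away. Pairs of 2 wide peaks were found in 21q22.3 (46126162 to 46127317 and 46128581 to 46129175, scores 418 and 371) and in 11p15.5 (832782 to 833426 and 843249 to 844235, scores 311 and 350). In 12p13.31 and 4p15.2 the gaps were smallest, 881 and 826 bp.

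By chromosome, the share of wide peaks ran from 7.14% on chromosome 14 (1 of 14) to 66.7% on Y (4 of 6). One of 24 chromosomes passed the test (4.17%), chromosome 21. It held 17 wide and 15 narrower peaks, or 53.1% wide (95% exact interval 34.7 to 70.9%; Fisher's exact test, Benjamini-Hochberg adjusted over 24 chromosomes, p = 0.020). The call depended on the width limit and on the scores included: no chromosome passed at 750 bp (smallest adjusted Fisher's exact p = 0.26), at 1000 bp (0.43) or among peaks that reached the median score (0.14), and chromosomes 17 and 21 passed at 500 bp. Its wide peaks made up 5.86% of all wide peaks, and its narrower peaks 1.81% of all narrower ones. Y, with its 6 peaks, did not pass (adjusted Fisher's exact p = 0.34), nor did chromosome 17 with 6 wide of 48 (12.5%, adjusted Fisher's exact p = 0.34). Chromosome 16 had 21 wide of 57 (36.8%, adjusted Fisher's exact p = 0.37), and chromosome 1 had 53 of 174 (30.5%, adjusted Fisher's exact p = 0.54).

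On chromosome 21, the wide peaks had scores of 305 to 1080 and widths of 595 to 2347 bp. Of these 17 peaks 8 had a replicate 1 peak, against 26.9% of all wide peaks. Of the 15 narrower peaks there 0 had one, against 14.3% of all narrower peaks. The counts are small, were seen after the fact and were not tested. Band 21q22.3 held 8 wide and 6 narrower peaks, and 6 of the 8 were in replicate 1. Without this band no chromosome passed, with a smallest adjusted Fisher's exact p of 0.33. Against 25.9% of the whole list, wide peaks were 9 of 11 in 1q23.3, 8 of 21 in 16p13.3, 4 of 7 in 2q31.1 and 4 of 9 each in 13q34 and 7p22.3, while in 19p13.3 they were only 6 of 28. Bands were not tested.

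**Figure D5:**
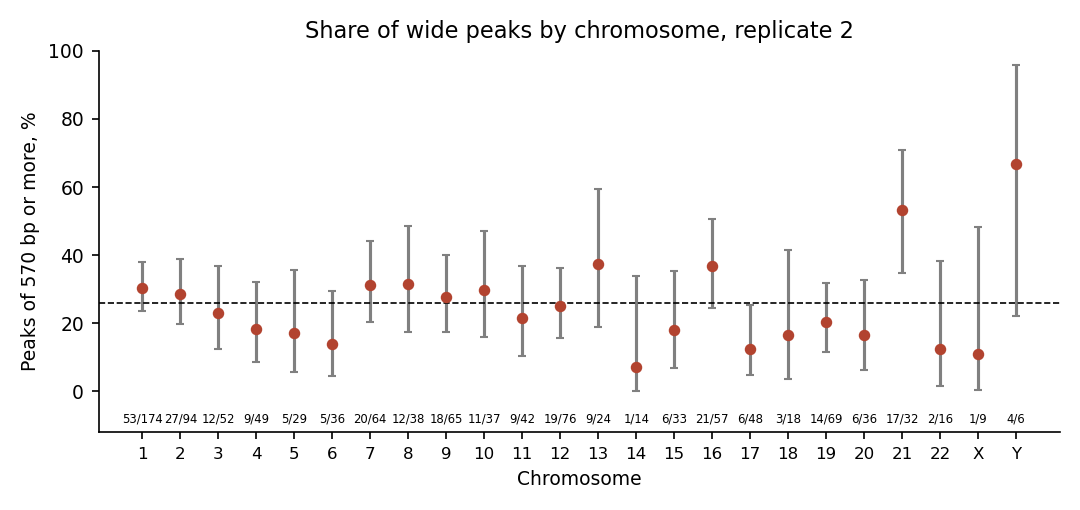
Percent of replicate 2 peaks that are 570 bp or wider (y axis) on each chromosome (x axis), with 95% exact binomial intervals and counts of wide over all peaks; the dashed line is the whole list, 25.9%. Chromosome 21 (17 of 32) alone passes the adjusted test at this limit, and none passes at 750 or 1000 bp.

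Bands that stain lightly with Giemsa, where genes are dense, took in 208 of the 290 wide peaks, or 71.7% (95% exact interval 66.2 to 76.8%). They held 534 of the 828 narrower peaks, or 64.5% (61.1 to 67.8%), and 66.4% of the list. The difference was 7.23 points (Newcombe interval 0.926 to 13.1; Fisher's exact p = 0.025, adjusted p = 0.034). It no longer passed without the 1q23.3 and 1q42.13 peaks (70.4% and 64.1%, Fisher's exact p = 0.057), nor with the line at 500 or 750 bp. The share did not climb steadily with width: it was 65.5% under 300 bp, 63.3% from 300 bp, 72.6% from 570 bp, 65.4% from 750 bp and 75.4% from 1000 bp. Of the 16 peaks of 1500 bp or more 15 lay in light bands, 4 of them in the 1q23.3 row.

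Nearness to chromosome ends did not differ beyond counting error. Within 1 Mb of an end lay 28 wide peaks (9.66%) and 65 narrower ones (7.85%), against 8.32% of the list. The difference of 1.80 points had a Newcombe interval of -1.73 to 6.08 (Fisher's exact p = 0.33, adjusted p = 0.33). The 28 were spread over 16 chromosomes. A replicate 1 peak overlapped 5 of the 28, against 26.9% of all wide peaks and 17.5% of the whole list.

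Chromosomes X and Y held 5 wide peaks. A pair of them, at 1572356 to 1573204 on X (849 bp, score 1033) and at 1522401 to 1523199 on Y (799 bp, score 875), lay at matching places of the pseudoautosomal region, which X and Y share. They may therefore be 1 sequence counted at both places, and both had a replicate 1 peak and overlapped CpG islands of hg19. The other 3, all on Y, had scores of 319 to 515, overlapped no island and had no replicate 1 peak. That at 423354 to 425559 also lay in the pseudoautosomal region, but the list held no X peak at the matching place. Of the 10 narrower peaks of X and Y, 7 overlapped an island.

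Gene starts could be read for 427 genes with 493 start sites in hg19, a small sample whose selection is not known. A sampled start lay within 1 kb of 7 of the 290 wide peaks (2.41%, 95% exact interval 0.976 to 4.91%) and of 6 of the 828 narrower ones (0.725%, 0.266 to 1.57%). These shares cover the sample only and were not tested. The 1 kb was counted from the peak edges, so a wide peak had a longer stretch in which to meet a start. The start lay inside the peak for 5 of the 7 wide peaks. That placement depends on the width that chose the peaks, so it is not set against the narrower ones. Apart from these 7, 2 wide peaks lay in bodies of sampled genes. They lay in an intron of TMEM132B (125894177 to 125895656 on chromosome 12) and over an exon of KCNK4, a potassium channel gene (64067477 to 64068267 on chromosome 11, 791 bp, score 302). A narrower peak of 328 bp (score 414) covered the start of KCNK4 and formed a pair with it.

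The strongest of the 7 was at TTC3, which encodes a ubiquitin ligase. It spanned 38445696 to 38446499 on chromosome 21 (804 bp, score 835), began 142 bp downstream of the start at 38445554 and overlapped 88 bp of the first exon. It was the only one of the 7 with a replicate 1 peak (294 bp, score 635), against 26.9% of all wide peaks. The peak at PUSL1, a gene of the pseudouridine synthase family, covered 1141 bp upstream of the start at 1243960 and 92 bp of the first exon on chromosome 1 (1233 bp, score 342). At MTA3, which encodes a subunit of the repressive NuRD complex, a 923 bp peak (score 272) covered the start at 42795772 on chromosome 2 with 394 bp upstream. The 815 bp peak at MMP17, a gene of the matrix metalloproteinase family, covered the start at 132312938 on chromosome 12 (score 302). At KANK1, which encodes a regulator of the actin cytoskeleton, the 570 bp peak (score 331) lay 267 bp downstream of the start at 504555 on chromosome 9, in an intron. Of the 6 without a replicate 1 peak 5 scored below the wide peaks' median of 399, and that at ETV6 scored 450. Beside CTXN1 and ETV6, whose promoters are printed above, the stretch before the start was not fully under the peak, allowing for gene length, at MTA3, KANK1 and TTC3, and PUSL1 and MMP17 were not in the promoter table.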

How the data were processed

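ChIP-seq libraries of NTera2 cells (2 with anti-BEND3, 1 with IgG) had 10 cycles of amplification and 101 of sequencing, per the labels' protocols. Peaks came as 1 list per BEND3 ChIP, called against IgG per the list names. Tools in the submitters' processing notes are MACS2, Novoalign and Picard 2.9.4, on hg19, without roles; the calling threshold and mode are not given in the sources used here. Of 9 columns without header, start, end and score were used; the score, as deposited, equalled the last column times 10 with decimals dropped in 100% of the 1334 peaks. Depth is unknown, and intervals cover counting error only.

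Width was end minus start, with starts counted from 0. Shares were compared between wide and narrower peaks by two-sided Fisher's exact tests with a threshold of 0.05 (scipy 1.17.1, statsmodels 0.14.6, Python 3.11.15), on functions tested on simulated data. Bands came from circlize 0.4.16. Start sites came from the sample database of GenomicFeatures 1.54.1 (43 genes) and from an example set of pyranges 0.1.4 (384 genes). The latter names no build; its 7 extra contigs are all hg19 names, and 5 of 368 genes had the same start in GRCh38. CpG islands of X and Y, also from pyranges, were taken as hg19 because 85 islands match between X and Y at the 50 kb shift of that build.

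The members, lists and motif were chosen with earlier results of these data known. Named were the 10 widest peaks, the 10 of highest score, the 10 of highest replicate 1 score, those with a neighbour within 10 kb or a sampled start within 1 kb, and 6 at the width limit; from the longer of these sets, examples are printed. Bands, arrays and single chromosomes were also named after their values were seen.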

Additional observations from a re-analysis of the deposited data

How the results depend on the processing

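Of 77 alternative values, 56 kept their direction and side of the threshold or, for counts, stayed within 1.5 times. The overlap with replicate 1 turned with 50% overlap of both peaks (10.7% of wide peaks), where narrow replicate 1 peaks inside wide ones are lost by construction. It also turned with the same width rule on the replicate 1 list (27 of 30, or 90%, against 90.9% of narrower peaks overlapping replicate 2). There nearly all peaks of either width overlapped, which left little room for a difference. The overlap with replicate 1 lost its call in the lower score classes (2.30% and 11.7%). With the other 14 alternatives the call held. Close neighbours had nearly equal shares at a distance of 1 kb (0.690% against 0.725%), where only 2 wide peaks counted, too few to give a direction. The call was also lost at 100 kb (22.4%), without chromosome 1 (5.49%) and, added after seeing the data, without 1q23.3 and 1q42.13 (5.42%). Light bands lost the call at 500 bp (69.6%), at 750 bp (71.2%) and without those bands (70.4%). Chromosomes with a different share numbered 2 at 500 bp (17 and 21), and 0 at 750 bp, at 1000 bp, with peaks under the median score left out and, added after seeing the data, without 21q22.3. Stricter limits leave fewer peaks by construction: 177 at 750 bp, 73 at 1000 bp and 144 at or above the median score, with 2 sampled starts at 1000 bp and 2 above the median score. Causes of the other changes were not tested. Nearness to ends passed under none of 9 alternatives. No value without replicate 1 could be had, since the overlap needs both lists. No paired analysis was possible because peaks of 1 list were compared with each other, with no numbered samples to pair. Unknown depth limits every absence from replicate 1.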

Other observations

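The width limit applied to the shorter list gave 30 peaks. Of these 22 overlapped a wide and 5 a narrower replicate 2 peak. The other 3 had no replicate 2 peak. They lay in 2q31.3 (181845087 to 181846043 on chromosome 2, 957 bp, score 300), 7p22.3 (945320 to 946178 on chromosome 7, 859 bp, score 420) and 19p13.3 (300605 to 301217 on chromosome 19, 613 bp, score 314). The last lay 969 bp beyond the end of a wide replicate 2 peak at 298465 to 299635 (1171 bp, score 454), which had no replicate 1 peak.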
